A study of Mus musculus with 4 samples.

Results

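Of the 27998 genes in the count matrices of enriched blood T cells, 9 receptor genes of natural killer (NK) cells were described: Klra4, Klra7, Klra8 and Klra9 of the Ly49 family, Klre1 and Klri2, Klrb1b and Klrb1c of the NKR-P1 family, and Ncr1. They were chosen by symbol, and all 9 were found. Their UMIs (unique molecular identifiers, each counting 1 captured RNA molecule) were read in 77 NK-gated cells, 2029 CD8 T cells and 842 CD4 T cells of 5299 kept cells. NK-gated cells held at least 1 UMI of Ncr1 or Klrb1c and at most 1 UMI of the Cd3 genes. T cells held at least 2 Cd3 UMIs, and were taken as CD8 or CD4 T cells when they held UMIs of Cd8a or Cd8b1 alone or of Cd4 alone.

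Droplet-based single-cell RNA sequencing was run on blood of female C57BL/6 mice, 6 to 8 weeks old at the start, on day 18 after MC-38 cells, which come from a colorectal tumor of the mouse, were placed under the skin. There were 4 libraries: Untreated, PDL1 (blocking anti-PD-L1 antibody on days 10, 13 and 17), OX40 (agonistic anti-OX40 antibody near the tumor on day 7) and PDOX (both treatments). The regimen of the methods pairs anti-OX40 with the TLR9 ligand CpG, although the label names OX40 alone. All mice carried the tumor. Each group is 1 library, so mouse, library and treatment cannot be told apart, and no test between treatments was possible. T cells were enriched by removing other cells, so the NK cells described here are those that the enrichment left.

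NK cells read the surface of other cells through balanced sets of activating and inhibitory receptors. Mouse Ly49 receptors are lectin-like proteins, most of which bind MHC class I, and each NK cell switches on only some of them, so that one animal holds many combinations. Klra7 (Ly49G) and Klra9 (Ly49I) encode inhibitory members, which recruit the phosphatases Ptpn6 and Inpp5d. Klra4 (Ly49D) and Klra8 (Ly49H) encode activating members, which signal through the adaptor Tyrobp (DAP12). Klre1 forms pairs with Klri1 or Klri2. Klrb1c encodes NK1.1, an activating receptor, and Klrb1b an inhibitory receptor for Clec2d. Ncr1 encodes NKp46, an activating receptor used to mark NK cells. NK receptors also appear on part of the memory and effector CD8 T cells.

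In the RefSeq annotation of GRCm38.p6, 8 of the 9 genes lay on chromosome 6 between 128778485 and 130233322, within 1.45 Mb, and Ncr1 lay on chromosome 7 between 4337715 and 4345184. The 4 Ly49 genes stood between 130043730 and 130233322. Their promoter windows (250 bases before to 50 after the start, RefSeq, GRCm38.p6) are shown because they are sequences next to annotated starts of the 4 genes whose combinations are described here. All 4 are on the minus strand, read 5′ to 3′, with runs of 9 or more bases that occur in all 4 windows in capitals. They are chr6:130067222-130067521 for Klra4, chr6:130129849-130130148 for Klra8, chr6:130233273-130233572 for Klra7 and chr6:130193063-130193362 for Klra9, and where the table gave 2 windows for a gene, the one most like Klra4 is shown.
Klra4: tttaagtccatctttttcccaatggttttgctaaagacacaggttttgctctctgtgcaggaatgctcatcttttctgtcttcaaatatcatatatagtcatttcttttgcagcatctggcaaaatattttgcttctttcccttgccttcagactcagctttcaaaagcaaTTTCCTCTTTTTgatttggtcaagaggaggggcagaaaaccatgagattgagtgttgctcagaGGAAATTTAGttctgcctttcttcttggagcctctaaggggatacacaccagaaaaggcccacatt
Klra8: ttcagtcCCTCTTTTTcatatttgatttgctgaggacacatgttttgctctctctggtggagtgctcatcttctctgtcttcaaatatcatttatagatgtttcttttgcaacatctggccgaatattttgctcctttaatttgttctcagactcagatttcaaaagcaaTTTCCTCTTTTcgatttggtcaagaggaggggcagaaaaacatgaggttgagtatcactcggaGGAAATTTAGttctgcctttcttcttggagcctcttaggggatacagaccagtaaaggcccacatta
Klra7: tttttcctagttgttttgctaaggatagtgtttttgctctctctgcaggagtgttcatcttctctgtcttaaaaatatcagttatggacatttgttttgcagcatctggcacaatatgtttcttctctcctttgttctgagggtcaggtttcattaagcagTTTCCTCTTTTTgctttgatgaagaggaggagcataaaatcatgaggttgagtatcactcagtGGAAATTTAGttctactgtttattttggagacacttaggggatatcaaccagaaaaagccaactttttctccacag
Klra9: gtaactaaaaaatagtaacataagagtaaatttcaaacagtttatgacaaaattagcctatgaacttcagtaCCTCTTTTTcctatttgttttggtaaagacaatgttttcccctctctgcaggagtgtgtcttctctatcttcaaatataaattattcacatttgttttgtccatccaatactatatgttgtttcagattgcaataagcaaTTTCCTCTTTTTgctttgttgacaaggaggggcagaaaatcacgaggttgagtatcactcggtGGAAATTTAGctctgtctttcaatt
Among the windows shown, those of Klra4 and Klra8 had 86.0% identity. The window of Klra7 shared 74.7% with Klra4 and 75.8% with Klra8, and that of Klra9 between 51.5% and 54.2% with the other 3. Outside the Ly49 family, windows of Klrb1b, Klrb1c, Ncr1 and Klre1 had 45.5%, 47.0%, 49.6% and 51.5% identity to Klra4. The 52.6% of Klra9 with Klra4 lay close to these. These values and the shared runs rest on the choice of windows, since the second window of Klra8 had 57.7% and that of Klra7 49.7% identity to Klra4. The window of Klra9 ends at 130193362, within the gene, whose annotated span reaches 130194374. It therefore does not stand at the outer 5′ end of the gene. Of the runs in capitals, GGAAATTTAG occurred on either strand in 0.0852% of all 32851 promoter windows, TTTCCTCTTTT in 0.149% and CCTCTTTTT in 0.569%. No transcription factor was measured, and a shared run is a description of these letters. Since the assay counts the 3′ ends of transcripts, the last 400 bases were also compared between genes. For Klra4, Klre1, Klri2 and Ncr1, no stretch of 90 bases there was shared with another gene. The shared part was 3.05% for Klrb1c (with Klrb1a), 4.72% for Klra7, 8.83% for Klra8, 13.7% for Klra9 and 30.2% for Klrb1b (with the gene model Gm44511), so the counts of Klrb1b and Klra9 are the least certain.

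Deposited UMIs ranged from 2392650 to 4969885 by library, with medians of 2472 to 3114.5 over kept cells. In more than 1 library, 16 barcodes occurred, none of them in an NK-gated cell or in a CD8 T cell with Ly49 UMIs. The NK gate held 16 Untreated, 6 PDL1, 35 OX40 and 20 PDOX cells. The label NK was checked against genes that the gate did not use: Fcer1g, Nkg7, Gzma and Tyrobp had UMIs in 98.7%, 97.4%, 96.1% and 96.1% of the NK-gated cells, Klrd1 in 87.0%, Eomes in 27.3% and Itga2 in 6.49%. Summed over the NK marker list, the level was between 364 and 486 UMIs per 10000 by library, compared with 27.4 to 81.0 in CD8 T cells. All 5 measured B cell markers and all 4 basophil markers were at 0 UMIs. The T cell list summed to between 2.0 and 2.97 UMIs per 10000, compared with 61.5 to 65.2 in CD8 T cells. The monocyte list reached 193 UMIs per 10000 in the PDL1 library, of which 1 of the 6 cells carried most. That cell also met a gate for monocytes on Csf1r, Lyz2 and Ms4a6c. It held 5259 UMIs, with 1 of Klrb1c and 0 of the other receptors. Over the genes compared with CD8 T cells, the PDL1 NK-gated cells held 14567 UMIs with it and 10448 without it. It thus lowers the PDL1 levels of the receptors that did not set the gate. Levels without it were not computed.

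All 9 receptors were detected in NK-gated cells of every library. Levels are UMIs per 10000 of the cells' UMIs, and 3′ counts do not grow with transcript length. The part of the 3′ end shared with other genes differs, however, at 0% for Klra4, 13.7% for Klra9 and 30.2% for Klrb1b. Levels of different genes are set side by side with that limit, which was not corrected for. Klre1 stood at 14.4 ± 2.80 (mean ± SD over n = 4 libraries), followed by Klra8 at 12.2 ± 4.15, Klra9 at 9.87 ± 1.92, Ncr1 at 9.79 ± 1.15, Klra4 at 9.57 ± 1.89 and Klrb1c at 9.56 ± 2.0. These 6 overlapped over the libraries and could not be ranked. Klra7, at 4.97 ± 1.27, lay below all 6 in its library values, since its highest library was at 6.23 and the lowest Klra4 library at 6.82. Both values are of PDOX, from 21 and 23 UMIs. Their counting intervals, 3.86 to 9.52 and 4.32 to 10.2, overlapped. Klri2, at 3.56 ± 0.401, overlapped with Klra7, and Klrb1b was the lowest at 1.88 ± 1.02. Ncr1 and Klrb1c set the gate, so their detection is not a result.

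Of the activating Ly49 genes, Klra8 had the largest SD between libraries of the 9 receptors. It was at 17.3 UMIs per 10000 in the Untreated library (47 UMIs in 12 of 16 cells), 13.7 in PDL1 (20 UMIs in 4 of 6 cells), 8.17 in OX40 (49 UMIs in 13 of 35 cells) and 9.49 in PDOX (32 UMIs in 8 of 20 cells). Both libraries with anti-OX40 were below the other two. The ratio to Untreated was 0.473 (95% counting interval 0.310 to 0.721) in OX40 and 0.549 (0.339 to 0.879) in PDOX. Klra4 was at 10.7, 11.0, 9.84 and 6.82 UMIs per 10000 in Untreated, PDL1, OX40 and PDOX, in 9, 4, 14 and 5 cells, and all 3 ratios to Untreated had intervals that included 1. UMIs of 1 cell are not independent, and each interval covers counting error in 2 libraries only. Klra8 was singled out as the most variable of the 9. The median ratio over all genes was 1.04 in OX40 and 1.05 in PDOX. The share of all genes with a decrease of this size was not computed, so whether that of Klra8 is unusual was not tested.

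The inhibitory Ly49 genes did not stand apart between libraries beyond counting error. Klra7 was at 5.88 UMIs per 10000 in Untreated, 4.11 in PDL1, 3.67 in OX40 and 6.23 in PDOX. Klra9 was at 11.0, 8.91, 7.67 and 11.9 in the same order. The 4 Ly49 genes together came to 44.8, 37.7, 29.3 and 34.4 UMIs per 10000, with ratios to Untreated of 0.840 (0.600 to 1.16) for PDL1, 0.654 (0.517 to 0.831) for OX40 and 0.767 (0.590 to 0.997) for PDOX. The PDL1 values include the cell that also met the monocyte gate, which held 0 Ly49 UMIs and adds to the denominator only. No Ly49 gene was at least 2-fold higher than in Untreated, and among all genes with at least 20 UMIs, 8.87% in PDL1, 7.58% in OX40 and 5.48% in PDOX were. These shares are of increases and give no background for the lower Ly49 values.

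Outside the Ly49 family, Klrb1b had the largest spread relative to its mean, from few UMIs. Klre1 was at 15.8, 10.3, 16.5 and 14.8 UMIs per 10000 in Untreated, PDL1, OX40 and PDOX, and it had UMIs in 65 of the 77 cells. Klri2, its activating partner, was at 3.31, 3.43, 3.34 and 4.15. Klri1, the inhibitory partner, was at 0 UMIs in the NK-gated cells. Klrb1b was at 1.47, 0.685, 3.0 and 2.37, from 4, 1, 18 and 8 UMIs. For Klre1, Klri2, Klrb1b, Klrb1c and Ncr1, every interval of the ratio to Untreated included 1.

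**Figure D1:**
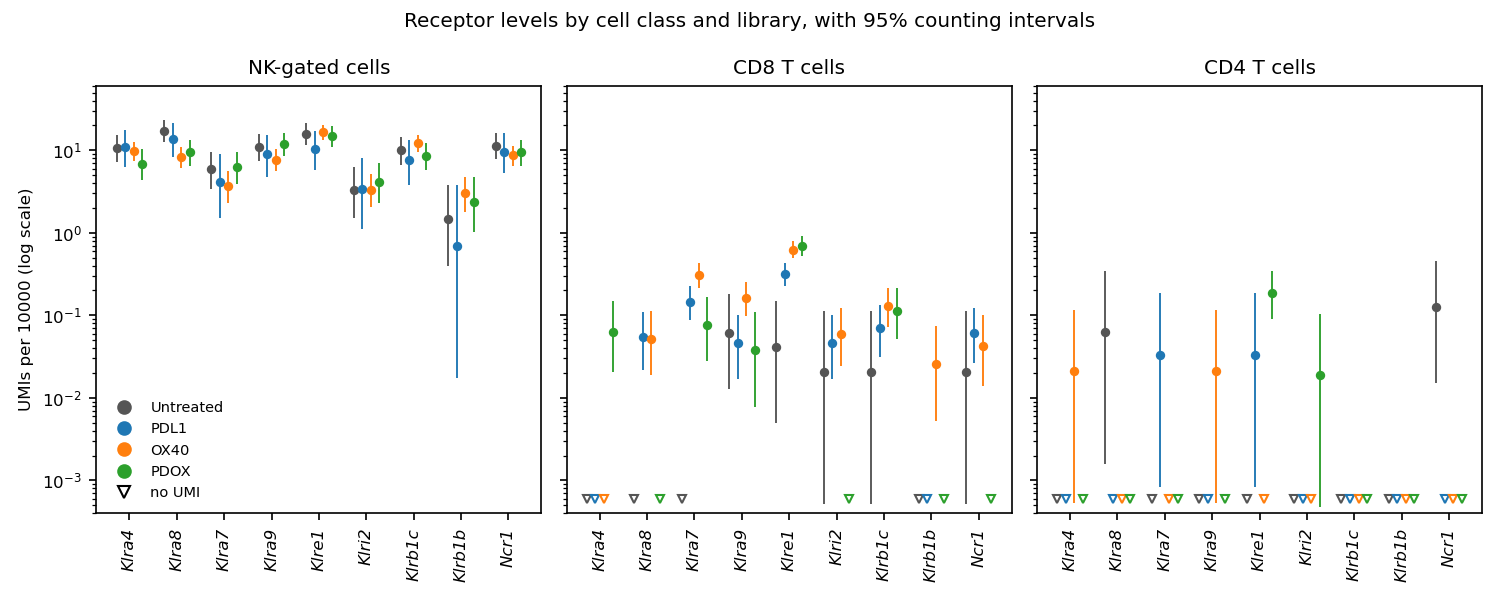
Levels of the 9 receptors (UMIs per 10000, log scale) in NK-gated, CD8 T and CD4 T cells, with 1 point per library (gray Untreated, blue PDL1, orange OX40, green PDOX), 95% Poisson intervals as bars and open triangles for libraries with no UMI. NK-gated cells lie between 0.685 and 17.3 for all receptors, whereas in CD8 T cells the highest point is Klre1 in PDOX at 0.694.

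An NK-gated cell held UMIs of several receptors at once. Of the 9 genes, the median cell held 5 and the range was 1 to 8, and of the 7 that did not set the gate the mean was 3.18. Of the 4 Ly49 genes, 16 of the 77 cells held none, 20 held 1, 15 held 2, 19 held 3 and 7 held all 4. At least 1 was found in 61 cells (79.2%, exact 95% interval 68.5% to 87.6%) and at least 2 in 41 (53.2%, 41.5% to 64.7%). Thinned to 1500 UMIs a cell, which left out 17 shallower cells, the shares were 78.3% and 53.3%. A cell without a UMI is not shown to lack the transcript.

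By library, at least 1 Ly49 receptor was found in 15 of 16 Untreated, 5 of 6 PDL1, 26 of 35 OX40 and 15 of 20 PDOX cells. The mean number per cell was 2.31, 2.33, 1.57 and 1.45. The median NK-gated cell held 2085, 2802.5, 2072 and 2346.5 UMIs in the same libraries. Thinned to 1500 UMIs a cell, the mean number was 2.0, 2.17, 1.56 and 1.46, over 14, 6, 27 and 13 cells. Whether depth bears on these differences was not tested. The cells with 0 Ly49 receptors had a median of 2649 UMIs and those with all 4 a median of 2195. The former include the PDL1 cell with 5259 UMIs that also met the monocyte gate. All 4 were found together in 2 Untreated, 1 PDL1, 4 OX40 and 0 PDOX cells.

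**Figure D2:**
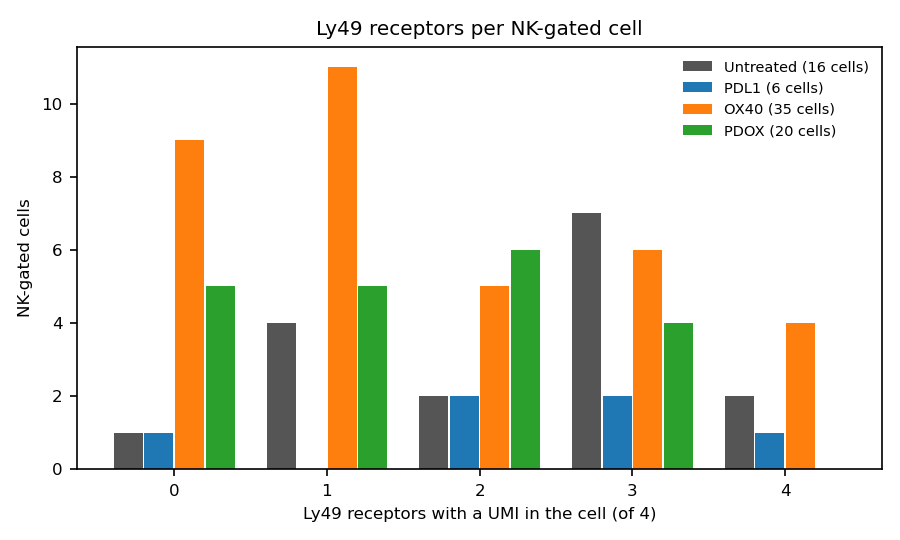
Number of NK-gated cells (vertical axis) by the number of Ly49 receptors with a UMI in the cell (horizontal axis, 0 to 4), with 1 bar per library. In Untreated, 7 of 16 cells held 3 receptors, whereas in OX40 9 of 35 cells held none and 11 held 1.

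The most frequent combination was Klra4, Klra8 and Klra9 together in 8 cells, then all 4 in 7 cells, Klra9 alone in 7 and Klra7 alone in 6. All 16 possible combinations, the empty one included, were seen. By function, 35 cells held UMIs of both an activating and an inhibitory Ly49, 11 of an activating one only, 15 of an inhibitory one only and 16 of neither. The inhibitory-only cells were 1 of 16 in Untreated, 0 of 6 in PDL1, 8 of 35 in OX40 and 6 of 20 in PDOX. Tyrobp, the adaptor that Ly49D and Ly49H need, had UMIs in 46 of the 46 cells with Klra4 or Klra8, but also in 74 of all 77 cells. Klri2 was found in 26 cells with and 1 cell without UMIs of its partner Klre1. Since 65 of the 77 cells held Klre1, 22.8 joint cells were expected from the shares within libraries, a ratio of 1.14.

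To describe co-detection, the number of cells with both receptors of a pair was set beside the number given by the product of their shares within each library. The 6 Ly49 pairs came to 114 observed and 91.6 expected joint detections, a ratio of 1.24. Klra4 and Klra8 occurred together in 23 cells, with 16.6 expected, and Klra8 and Klra9 in 25, with 18.2 expected. The other 4 Ly49 pairs had ratios between 1.13 and 1.23. Over the 21 pairs of the 7 receptors that did not set the gate, 15 had ratios above 1. Klrb1b lay lowest with Klra4, in 4 cells with 7.35 expected, and with Klra7, in 4 cells with 6.66 expected. These are descriptions with no test, since the pairs share cells, and cells differ in depth.

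**Figure D3:**
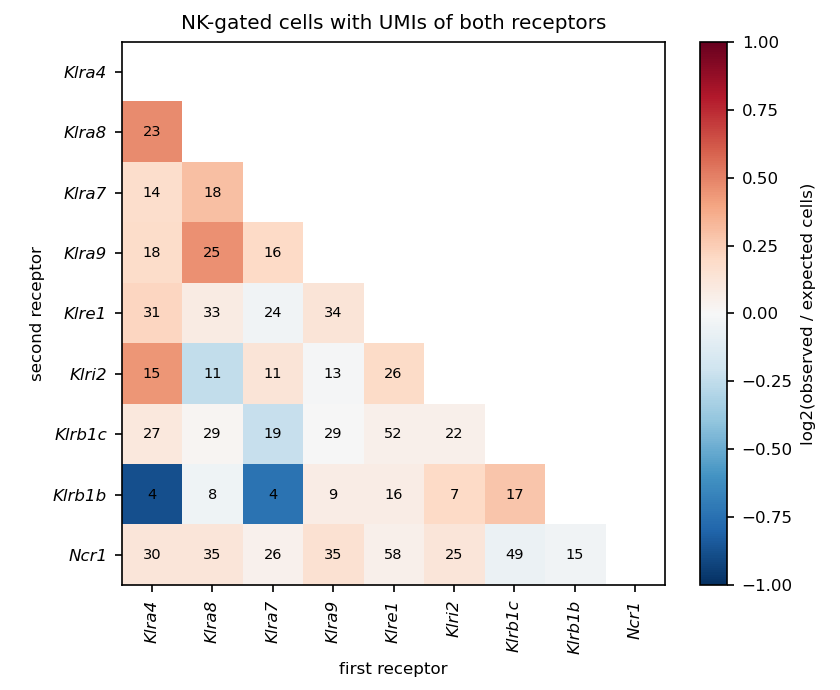
Co-detection of the 9 receptors in the 77 NK-gated cells: each square gives the number of cells with UMIs of both receptors, and its color the log2 ratio of that number to the one expected within libraries. All 6 Ly49 squares are red, and the darkest blue squares are Klrb1b with Klra4 and with Klra7, at 4 cells each.

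NK-gated cells and CD8 T cells were compared on UMIs summed per library, with the library as a block (edgeR quasi-likelihood test, Benjamini-Hochberg adjustment over 4278 genes). Untreated, OX40 and PDOX entered, since PDL1 held fewer than 10 NK-gated cells. Of all genes tested, 5.03% were higher and 6.64% lower in NK-gated cells. Ncr1 and Klrb1c, which set the gate, were left out. The other 7 are NK receptors like those that set the gate and passed the filter on low counts through the NK-gated cells, so their differences are a description of size and not a test. The log2 fold changes (± SE) were 8.59 ± 0.406 for Klra4, 8.59 ± 0.382 for Klra8, 7.37 ± 0.660 for Klrb1b, 6.66 ± 0.532 for Klri2, 6.57 ± 0.322 for Klra9, 5.08 ± 0.266 for Klre1 and 4.92 ± 0.411 for Klra7. Klre1 and Klra7, the smallest of these differences, were also the receptors with the most UMIs in CD8 T cells.

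Of 17 other receptors of the NK gene complex in the files, 8 passed the filter on low counts, and all 8 were higher in NK-gated cells. Rare ones such as Klrb1a, Klrb1f and Klra3 passed it through the NK-gated cells, so the count of 8 supports nothing by itself. The largest differences were Klrb1a at 7.24, Klrb1f at 5.81 and Klra3 at 4.69. The smallest was Klrd1 (CD94, the partner of the NKG2 receptors) at 1.52. Of 11 tested adaptor and signaling genes, 3 were higher: Tyrobp at 7.35, Fcer1g at 7.27, which serves NK1.1 and NKp46, and the kinase Syk at 3.61. The T cell kinase Lck was lower at -0.64 (adjusted p = 0.0232), and Hcst (DAP10) differed by -0.27 (adjusted p = 0.477). Of the 5 tested ligand genes, among them H2-K1, H2-D1 and Clec2d, 0 were called higher or lower.

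In CD8 T cells, Klre1 and Klra7 were the receptors detected most often, and all 9 were rare. Ly49 UMIs were found in 3 of 307 Untreated, 15 of 641 PDL1, 19 of 648 OX40 and 11 of 433 PDOX cells, that is 0.977%, 2.34%, 2.93% and 2.54%. Of the 48 cells, 27 held Klra7, 18 Klra9, 4 Klra4 and 4 Klra8, and 5 held more than 1 Ly49 gene. As a background for free RNA, B cells, which should lack these receptors, held Ly49 UMIs in 0 of 154 cells (upper 95% bound 2.37%) at a median of 2029 UMIs, compared with 3380 in CD8 T cells. CD4 T cells held them in 4 of 842 cells (0.475%, 0.130% to 1.21%) at a median of 2855 UMIs. The share in all CD8 T cells, 2.37% (1.75% to 3.12%), lay above that of CD4 T cells but not above the bound that the few B cells allow. These shares pool the 4 libraries. In Untreated, they were 0.977% in CD8 and 1.03% in CD4 T cells, and only in PDOX did the intervals not overlap. Thinned to 1500 UMIs a cell, the pooled intervals overlapped, at 0.744% to 1.79% in CD8 T cells and 0.0846% to 1.19% in CD4 T cells.

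Klre1 showed the widest range over the libraries in CD8 T cells. It had UMIs in 1 of 307 Untreated, 17 of 641 PDL1, 32 of 648 OX40 and 35 of 433 PDOX cells, that is 0.326%, 2.65%, 4.94% and 8.08%. Its level was 0.0410, 0.316, 0.626 and 0.694 UMIs per 10000, which gave ratios to Untreated of 7.70 (2.0 to 65.8), 15.3 (4.08 to 129) and 16.9 (4.47 to 143). The Untreated value rested on 2 UMIs. Among all genes with at least 20 UMIs, 4.76% in PDL1, 3.87% in OX40 and 4.59% in PDOX were at least 2-fold higher than in Untreated. Klre1 had UMIs in 1 of 154 B cells (0.649%) and in 3 of 842 CD4 T cells (0.356%).

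Klra7 had 0 UMIs in Untreated CD8 T cells, 19 in PDL1, 36 in OX40 and 6 in PDOX. Against a floor of 3 UMIs in the Untreated library, its level was at least 5.02-fold higher in OX40, 2.38-fold in PDL1 and 1.23-fold in PDOX. The summed Ly49 level was 0.0615 UMIs per 10000 in Untreated, 0.246 in PDL1, 0.523 in OX40 and 0.177 in PDOX. Its ratios to Untreated were 4.01 (1.25 to 20.5), 8.51 (2.78 to 42.4) and 2.87 (0.802 to 15.6), again with UMIs taken as independent. The intervals of the shares of cells with Ly49 UMIs overlapped. They were 0.202% to 2.83% in Untreated, 1.32% to 3.83% in PDL1, 1.77% to 4.54% in OX40 and 1.27% to 4.50% in PDOX. PDOX, which had the highest share of cells with Klre1 UMIs, was thus not the highest for Ly49. Klrb1c had 1, 9, 15 and 9 UMIs in Untreated, PDL1, OX40 and PDOX, and Ncr1 had 1, 8, 5 and 0.

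Depth bore on these shares. Thinned to 1500 UMIs a cell, Ly49 UMIs were left in 0 of 283 Untreated, 8 of 603 PDL1, 8 of 598 OX40 and 6 of 372 PDOX CD8 T cells, and Klre1 UMIs in 0, 11, 15 and 16. The 0 of 283 cells had an upper 95% bound of 1.30%, which overlaps with the Ly49 shares of the other libraries. For Klre1, the bound lay below the interval of OX40, from 1.41%, and of PDOX, from 2.48%. Thinned to 1000 UMIs, the Untreated bound was 1.23% and the OX40 interval began at 1.10%, so these overlapped, whereas the PDOX interval began at 2.21%.

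The libraries also differed in how many CD8 T cells held Ccl5, a chemokine of memory and effector CD8 T cells: 20.8% in Untreated, 29.3% in PDL1, 56.8% in OX40 and 64.2% in PDOX. Most of the receptor-bearing cells held it. Ly49 UMIs were found in 41 of 898 CD8 T cells with Ccl5 UMIs and in 7 of 1131 without, and Klre1 UMIs in 83 of 898 and in 2 of 1131. Within the cells with Ccl5 UMIs, the Ly49 share was 4.69% in Untreated, 5.85% in PDL1, 4.62% in OX40 and 3.6% in PDOX, with overlapping intervals. The Klre1 share in the same cells was 1.56% (0.0396% to 8.40%), 8.51% (4.94% to 13.5%), 8.42% (5.80% to 11.7%) and 12.6% (8.93% to 17.1%), and only the intervals of Untreated and PDOX did not overlap.

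**Figure D4:**
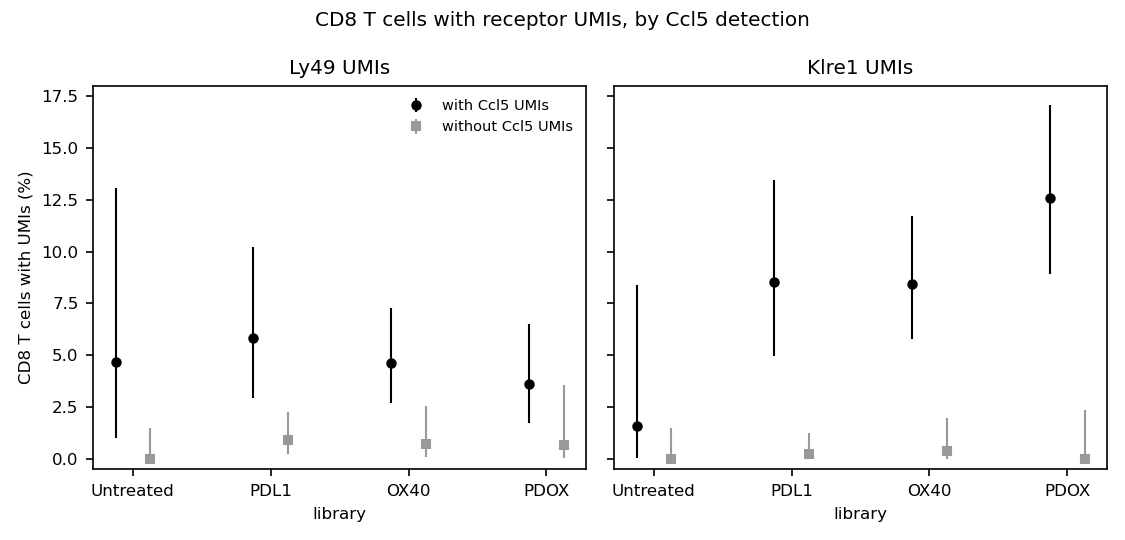
Percent of CD8 T cells with UMIs of a Ly49 gene (left) and of Klre1 (right) by library, split by Ccl5 UMIs (black circles with, gray squares without), with exact 95% intervals. Cells with Ccl5 UMIs lie between 3.6% and 5.85% for Ly49, and between 1.56% and 12.6% for Klre1.

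CD8 and CD4 T cells were compared in all 4 libraries with the same test. No receptor passed its filter on low counts, among 6024 genes of which 2.94% were higher and 2.21% lower in CD8 T cells. Without the filter, 3 of the 9 were called higher in CD8 T cells, where 2.17% of 14087 genes were: Klra7 with a log2 fold change of 4.24 ± 0.845 (61 against 1 UMIs, adjusted p = 4.43e-05), Klre1 with 2.94 ± 0.377 (171 against 11, adjusted p = 1.73e-12) and Klrb1c (34 against 0 UMIs, adjusted p = 0.00291). Klra9, with 31 against 1 UMIs, had an adjusted p of 0.0709, and the other 5 had between 3 and 14 UMIs in CD8 T cells and were not called. The 3 calls rest on leaving out the filter for genes with few UMIs in CD4 T cells. UMIs of 1 cell are not independent, and 1 OX40 cell held 14 of the 61 Klra7 UMIs. Of 5 tested receptors of the NK gene complex, 4 were higher in CD8 T cells: Klrc2 at 2.34, Klrc1 at 2.18, Klrd1 at 2.16 and Klrk1 (NKG2D) at 1.32. The exception was Klrg1, at -0.05 (adjusted p = 0.986).

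What the CD8 T cells with Ly49 UMIs shared was tested by splitting CD8 T cells on the 4 Ly49 genes, which were left out. PDL1, OX40 and PDOX entered, with 45 positive and 1677 negative cells. The positive cells were deeper, at a median of 3770.5 UMIs against 3375 over all 4 libraries, and depth was scaled for in the test. Of 5229 genes, 33 (0.631%) were higher and 13 (0.249%) lower in the positive cells. These counts were 4 and 3 without PDL1, 2 (Klrb1c and Klre1) and 0 with no library block, and 0 and 0 when CD8 T cells were instead gated on a log1p level of Cd8a above 1. At an unadjusted p under 0.05, edgeR gave 140 and 233 with no block, and 75 and 156 with that gate, which left 2 libraries. Of the genes described next, Klrb1c, Klre1, Gzma and Dapl1 were still called without PDL1, and Zeb2, Xcl1, Cx3cr1 and Actn1 were not.

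Of the other receptors, Klrb1c and Klre1 were higher in the cells with Ly49 UMIs. Klrb1c (NK1.1) had UMIs in 10 of 45 positive and 10 of 1677 negative cells, with a log2 fold change of 5.37 ± 0.704 (adjusted p = 6.58e-09). With so few UMIs in negative cells it passed the filter on low counts through the positive cells. With no filter it was at 5.10 (adjusted p = 1.70e-07). Its level was 1.80, 1.80 and 1.65 UMIs per 10000 in positive cells of PDL1, OX40 and PDOX, and at 0.00797, 0.0538 and 0.0650 in negative cells. Klre1 had UMIs in 17 of 45 and 67 of 1677 cells, with a log2 fold change of 3.81 ± 0.351 (adjusted p = 6.47e-16). It was at 2.93, 7.62 and 4.96 UMIs per 10000 in positive cells and at 0.223, 0.314 and 0.559 in negative cells of the same libraries. The groups did not overlap for either gene, but these levels rest on few cells. In PDL1, 1 positive cell held 6 of the 8 Klrb1c UMIs, along with 7 Ncr1 and 14 Fcer1g UMIs. In PDOX, 2 positive cells held the 4 Klrb1c UMIs. In OX40, 1 positive cell held 14 of the 38 Klre1 UMIs. Ncr1 (8 UMIs in positive and 5 in negative cells), Klri2 (6 and 7) and Klrb1b (3 and 0) did not pass the filter on low counts. Of 5 tested NK complex receptors, Klrc2 (2.20) and Klrk1 (1.47) were higher, but in PDOX both were at about the same level in positive and negative cells.

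Some effector genes and some naive genes differed in the split. Of 18 tested genes of the CD8 memory and effector list, 6 were higher in positive cells and 0 lower, with a median log2 fold change of 1.03 beside -0.12 over all genes. Among them, Gzma (granzyme A) changed by 2.29 ± 0.176, with UMIs in 19 of 45 positive and 207 of 1677 negative cells. Zeb2, a transcription factor of effector cells, changed by 2.30 ± 0.352, Xcl1, a chemokine, by 2.56 ± 0.563, Cx3cr1 by 1.98 ± 0.458, Gzmb by 1.20 ± 0.25 and Ccl5 by 0.90 ± 0.161. Of the 8 naive T cell genes, 4 were lower and 0 higher: Actn1 by -1.89, Dapl1 by -1.81, Igfbp4 by -1.79 and Lef1 by -0.99. Dapl1 had UMIs in 6 of 45 positive and 689 of 1677 negative cells. Of the T cell list, 2 of 7 genes were lower, Lef1 and Cd3g, the latter by -0.69.

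Some calls rested on few cells. Tyrobp (4.72) and Fcer1g (4.94), the adaptors of the activating receptors, were higher in positive cells, but 1 PDL1 cell carried 99 of the 138 Tyrobp and 114 of the 163 Fcer1g UMIs. The same cell carried 288 of the 296 Lyz2, 36 of the 39 Lst1 and 12 of the 15 Cd68 UMIs of the positive cells, genes of monocytes. Of the monocyte list, 3 of 6 tested genes were higher (Lyz2, Cst3 and Cx3cr1). Without the CD8 T cells that held such monocyte UMIs (2 positive and, over all 4 libraries, 17 negative cells), 17 genes were higher and 13 lower, of which 13 and 9 were among the calls above. Klrb1c (5.92), Klre1 (3.98), Fcer1g (4.62), Gzma (2.49), Xcl1 (2.74) and Zeb2 (2.13) were still higher, whereas Cx3cr1 (1.41, adjusted p = 0.397), Lair1 (2.1, adjusted p = 0.296) and Calhm2 (2.29, adjusted p = 0.166) were not called. No PDOX positive cell held Tyrobp or Fcer1g UMIs.

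Of the decreases, Ifitm1, an interferon-induced gene, had 0 UMIs in the 45 positive cells, which was at least 13.9-fold lower than in negative cells. Its 1108 UMIs in negative cells came from 86 of 1677 cells (5.13%), and 0 of 45 cells allows a share of up to 6.67%, so no difference in the share of cells was detectable. Gsto1 fell by 3.0 on the log2 scale, but had UMIs in 9 of 45 positive and 321 of 1677 negative cells, which are about equal shares, and 1 negative cell held 1817 of its 3500 UMIs. Mgst2 fell by 2.07, with UMIs in 4 of 45 and 407 of 1677 cells.

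**Figure D5:**
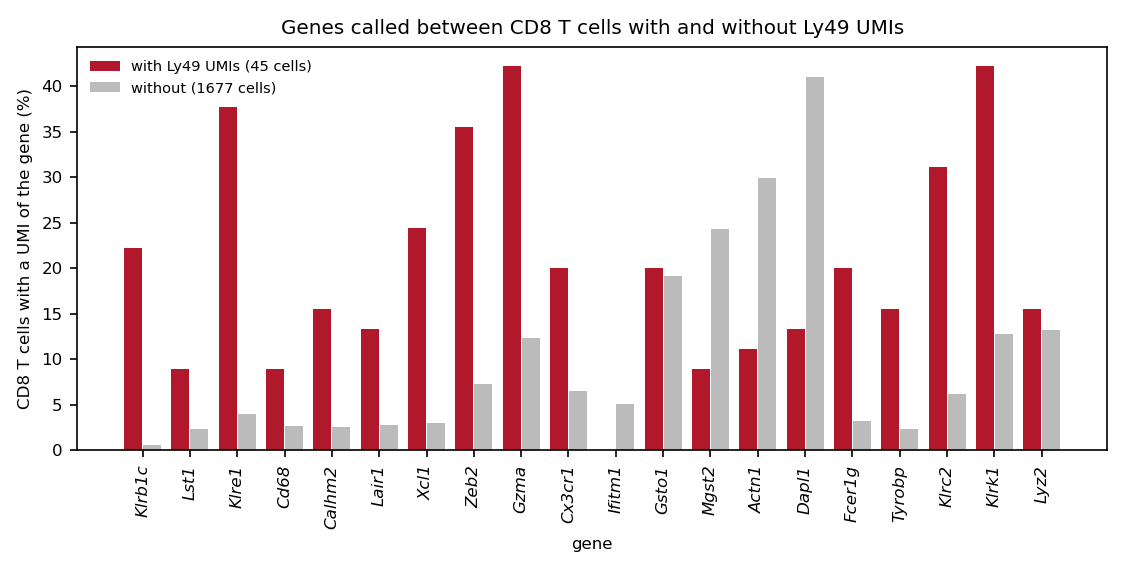
Percent of CD8 T cells of PDL1, OX40 and PDOX with a UMI of each gene (vertical axis, from 0), in 45 cells with Ly49 UMIs (red) and 1677 without (gray), for the 15 genes named by rule and 5 others that were called. Klre1 stands at 37.8% against 4.00% and Gzma at 42.2% against 12.3%, whereas Gsto1 and Lyz2 are nearly level.

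The split was repeated against negative cells with Ccl5 UMIs only. Klrb1c (4.63, adjusted p = 5.47e-05), Klre1 (3.0, adjusted p = 0.000135) and Gzma (1.49, adjusted p = 0.000639) were still higher, among 6 genes called higher and 5 lower. Zeb2 (1.59, adjusted p = 0.0716) and Xcl1 (1.66, adjusted p = 0.390) were not called in that comparison. Cx3cr1, Gzmb, Ccl5, Klrc2 and Klrk1 (adjusted p between 0.544 for Klrc2 and 0.995 for Ccl5) were not called either. Nor were Cd3g (adjusted p = 0.291) and the 4 naive genes, with Dapl1 at -1.20 (adjusted p = 0.0932), Actn1 at -1.39 (0.603), Igfbp4 at -0.98 (0.879) and Lef1 at -0.38 (0.933). Without the CD8 T cells that held Ncr1 or Fcer1g UMIs, 3 genes were higher and 8 lower, with Klre1 at 3.05 and Gzma at 1.91 among the former. Klrb1c did not pass the filter on low counts there. Zeb2 (adjusted p = 0.206), Xcl1 (0.357), Cx3cr1 (0.897), Gzmb (0.624), Ccl5 (0.141), Klrc2 (0.197) and Klrk1 (0.294) were not called. Nor were Cd3g (0.0938), Lef1 (0.407), Igfbp4 (0.145) and Actn1 (0.230), whereas Dapl1 was still lower (-1.62, adjusted p = 7.73e-05). The same split of NK-gated cells was not fitted, since only OX40 and PDOX held at least 5 cells in both sets.

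Over 32 profiles (cell class by library, 9254 genes), the genes most like the summed Ly49 level were Xcl1 (Pearson r = 0.89), Klrc2 (0.89), Samd3 (0.88), Spry2 (0.88) and Kcnj8 (0.87). Those most like Klrb1c were Cma1 (0.96), Klra3 (0.93), Arl4d (0.93), Xcl1 (0.91) and Tmem37 (0.88). Those most like Ncr1 were Cma1 (0.96), Klra3 (0.90), Xcl1 (0.89), Arl4d (0.89) and Prf1 (0.84). Profiles of 1 library share its depth, and the 3 NK-gated profiles carried much of the likeness: without them, r fell to 0.17 for Ncr1 with Cma1, 0.26 for Klrb1c with Cma1 and 0.55 for the Ly49 sum with Xcl1 and 0.69 for the Ly49 sum with Klrc2.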

How the data were processed

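The authors made 10x Chromium 3′ libraries, ran Cell Ranger and deposited raw UMI counts, whole numbers for each gene in each cell. The submitters' notes name mm10 and Seurat 2. Cells with at least 200 genes were kept, without the counts of 101 ribosomal, 13 mitochondrial and 10 hemoglobin genes. No doublet caller was run. Counts were summed per library and cell set and tested with edgeR 4.0.16 in R 4.3.3 (TMM, filterByExpr, quasi-likelihood test, library as a block, Benjamini-Hochberg adjustment, threshold 0.05, at least 10 cells per set and library). Both sets came from the same libraries, which differ in treatment, so p-values do not measure agreement between mice or replicate libraries. UMIs of 1 cell are not independent, and a gene carried by 1 cell can have a small p-value. In the Ly49 split, Fcer1g had an adjusted p of 3.14e-25, with 114 of its 163 UMIs in 1 cell and 0 in PDOX positive cells. Shares have exact Clopper-Pearson, levels exact Poisson and ratios exact conditional binomial intervals (95%), for counting error only. Named genes of the Ly49 split were the 10 largest increases and 5 largest decreases called in the same direction in every library. The receptors and lists were chosen with earlier results of these data known. In simulated data with 200 genes changed 4-fold, the tests recovered 81 (NK-gated against CD8 T cells, 4058 genes), 159 (CD8 against CD4 T cells, 6038 genes) and 67 (Ly49 split, 5225 genes), with 3, 7 and 1 false calls. The simulation had a fixed dispersion, changed no gene of low count, and held no difference between libraries and no UMIs gathered in single cells. Its false calls therefore do not give the rate in these data. Alternatives included DESeq2 1.42.0. Python 3.11.15 was used for all else.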

Additional observations from a re-analysis of the deposited data

Results flagged for a closer look

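T cells without Cd4 or Cd8 UMIs, which the comparisons of the report left out and 1 alternative (all T cells without Cd4 UMIs) included, held receptor UMIs above the Untreated library. In OX40, Klra7 was at 1.02 UMIs per 10000 (64 UMIs in 14 of 444 cells) against 0.0317 in Untreated (upper 95% bound 0.176). Klre1 in OX40 was at 0.720 (45 UMIs in 22 cells) against 0.0634 (upper bound 0.229). The Ly49 sum was at 1.31 in OX40 (82 UMIs in 20 cells) and at 0.591 in PDL1 (33 UMIs in 5 of 359 cells, of which 28 in 1 cell), against 0.0950 in Untreated (upper bound 0.278). Of the 20 OX40 cells with Ly49 UMIs, 16 held Fcer1g, 14 Klre1, 9 Klrb1c and 19 Ccl5 UMIs. PDOX, with 4 of 449 cells, was not among them. The bounds take UMIs as independent, and the exact intervals of the shares of cells overlapped. For Klra7, the Untreated interval reached 2.58% and the OX40 interval began at 1.73%. For Klre1 these were 3.34% and 3.13%. For Ly49, Untreated reached 4.04%, and OX40 began at 2.77% and PDL1 at 0.454%. These values had no replicate check.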

How the results depend on the processing

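The 7 receptors were higher in NK-gated than in CD8 T cells under each alternative in which they were tested, and Klrb1b was not tested in 1 of them. Of 315 alternative values for the comparisons, 251 stayed near the reported value. For NK-gated against CD8 T cells, 129 genes were higher and 85 lower with DESeq2, and 183 lower with no library block. For CD8 against CD4 T cells, these were 101 and 65 with DESeq2, 58 and 40 with no library block, 285 higher with all genes kept and 305 higher with no filter on low counts, and 1, 3 and 1 receptors were called with all genes kept, with no filter and with the log1p gate (a log1p level of Cd8a or Cd4 above 1, whatever the Cd3 UMIs). For the Ly49 split, genes higher and lower were 7 and 3 with DESeq2, 2 and 0 with no library block and 0 and 0 with that gate. At an unadjusted p under 0.05, edgeR gave 140 and 233 with no block, and 75 and 156 with that gate, which left 2 libraries and called 0 receptors (Klrb1c 6.40, adjusted p = 0.0816; Klre1 3.27, adjusted p = 0.813). Lower genes came to 30 with all genes kept and 77 with no filter. Higher genes came to 16 with cells of at most 2900 genes and 16 without the 5% of cells with the most UMIs. Alternatives added after seeing the data gave 17 higher without monocyte UMIs, 6 and 5 against negative cells with Ccl5 UMIs, 3 and 8 (and 1 receptor) without cells with Ncr1 or Fcer1g UMIs, and 89 and 66 in all T cells without Cd4 UMIs. Leaving out 1 library gave 76 to 215 higher, 85 to 284 lower and 6 to 7 receptors for the first comparison, 84 to 163, 51 to 125 and 0 to 1 for the second and 4 to 36, 3 to 13 and 2 to 2 for the Ly49 split. The lowest counts came without OX40 in the first 2 (76 and 85, 84 and 51), with 112 and 74 in the second without PDOX. In the split they came without PDL1 (4 and 3), with 19 and 5 without PDOX. Lst1 turned to -0.31 without the 5% of cells with the most UMIs and to -0.033 with the log1p gate, and Cx3cr1 to -0.49 with that gate. The cause of these changes was not tested. Thinned to 1500 UMIs, CD8 T cell shares were 0% (Untreated) and 1.34% (OX40) for Ly49, and 0%, 2.51% (OX40) and 4.30% (PDOX) for Klre1. Thinned to 1000 UMIs, they were 1.09% (PDL1), 1.27% (OX40) and 0.962% (PDOX) for Ly49 and 0%, 0.938%, 2.07% and 3.85% for Klre1, and 0% in CD4 T cells for Ly49 in Untreated, PDL1 and OX40 and for Klre1 in PDL1. Per 10000 UMIs of all genes, NK-gated levels were 7.31 for Klra4, 7.55 for Klra9, 11.0 for Klre1, 2.72 for Klri2, 7.30 for Klrb1c and 7.48 for Ncr1. The Ly49 split on thinned cells and the one in NK-gated cells were not run, since too few libraries held enough cells. No paired analysis was possible between treatments because each group is 1 library.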

Other observations

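Of 315 cells in no class, 4 held UMIs of 2 or more of the 7 receptors that do not set the NK gate, 1 in Untreated and 3 in OX40, and all 4 also held Fcer1g and Nkg7 UMIs. Klra6, a Ly49 gene outside the 9, had 28 UMIs in 19 CD8 T cells and 4 UMIs in 3 NK-gated cells, at 0.0748 and 0.295 UMIs per 10000. Klra3, in contrast, had 44 UMIs in 21 CD8 T cells and 52 UMIs in 20 NK-gated cells, at 0.117 and 3.84 UMIs per 10000.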
